A study of Homo sapiens with 6 samples.

Results

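The genes described here are 10 immediate early genes and their regulator: EGR1, EGR2, EGR3, NR4A1, NR4A2, IER2, IER3, IER5, ARC and SRF. They were chosen by gene symbol, and each matched 1 row of the 58656 in the deposited tables. The tables hold RNA sequencing of MDA-MB-231, an established human line of triple-negative breast cancer. One group of 3 libraries came from cells given mitocurcumin, curcumin linked to a cation that draws it into mitochondria, at 5 µM for 9 hours. The other group of 3 libraries came from cells given the DMSO vehicle for the same 9 hours. All 6 libraries came from cells in the same serum-containing medium, and no untreated cells and no other time point were analysed here. Replicates carry the label biological, but separate cultures are not stated, and the p-values below therefore cover the spread of these libraries, which may be technical.

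Immediate early genes are transcribed within minutes of a stimulus from factors already present in the cell, and their mRNAs are usually short-lived. Growth factor signals pass through the ERK kinase cascade to the ternary complex factors, which sit with the serum response factor SRF at CArG boxes in the promoters of such genes. The EGR proteins are zinc finger transcription factors that bind GC-rich sites. The NR4A proteins are orphan nuclear receptors controlled largely by their amount. The IER genes are named for their early induction, and of their products IER2 and IER5 are related to each other while IER3 is not, and ARC encodes a protein known mainly from neuronal synapses.

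Start site windows of 6 of the 10 genes were searched. These were 10 windows of 300 bases (250 before and 50 after a RefSeq start, GRCh38.p14). No window of EGR3, NR4A2, IER3 or ARC was searched. CArG boxes, the binding motif of SRF, were matched in 3 of the 10 windows, belonging to EGR1, SRF and EGR2, against 1.29% of all 35116 windows in the table. The windows below are shown because EGR1 and SRF are the genes of the set that fell, EGR2 shares their motif, and IER5 is the gene that rose. Each is written 5′ to 3′ on the gene's strand. Capitals mark CArG boxes in the first 3 windows and the motif GAANNTTC, part of a heat shock element, in that of IER5.
EGR1, chr5:138465229-138465528, plus strand: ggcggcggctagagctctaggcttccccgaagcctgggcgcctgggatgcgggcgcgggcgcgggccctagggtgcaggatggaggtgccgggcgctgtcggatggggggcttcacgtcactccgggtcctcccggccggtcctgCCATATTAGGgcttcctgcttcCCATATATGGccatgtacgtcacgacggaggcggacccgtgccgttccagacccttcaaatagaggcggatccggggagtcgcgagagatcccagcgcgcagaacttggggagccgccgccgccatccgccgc
SRF, chr6:43171019-43171318, plus strand: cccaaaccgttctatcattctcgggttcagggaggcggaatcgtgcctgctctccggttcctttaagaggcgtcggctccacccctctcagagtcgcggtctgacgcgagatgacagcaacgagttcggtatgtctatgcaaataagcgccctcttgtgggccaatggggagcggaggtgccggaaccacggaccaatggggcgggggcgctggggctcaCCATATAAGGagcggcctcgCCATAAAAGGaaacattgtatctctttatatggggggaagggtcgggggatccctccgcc
EGR2, chr10:62816317-62816616, minus strand: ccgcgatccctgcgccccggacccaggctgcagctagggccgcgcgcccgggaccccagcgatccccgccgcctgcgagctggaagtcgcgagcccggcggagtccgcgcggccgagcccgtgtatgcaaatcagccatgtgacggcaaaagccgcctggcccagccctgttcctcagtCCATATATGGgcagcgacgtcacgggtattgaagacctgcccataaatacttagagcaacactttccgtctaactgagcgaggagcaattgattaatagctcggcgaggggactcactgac
IER5, chr1:181088450-181088749, plus strand: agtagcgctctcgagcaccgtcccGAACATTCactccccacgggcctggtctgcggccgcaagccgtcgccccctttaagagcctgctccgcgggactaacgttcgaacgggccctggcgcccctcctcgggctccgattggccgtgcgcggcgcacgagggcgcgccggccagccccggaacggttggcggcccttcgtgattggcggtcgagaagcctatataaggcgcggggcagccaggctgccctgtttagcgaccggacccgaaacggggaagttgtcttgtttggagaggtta
In EGR1 the boxes CCATATTAGG and CCATATATGG began at positions -105 and -83, counted from the start site. In SRF, whose own promoter holds boxes for its product, CCATATAAGG and CCATAAAAGG began at -30 and -10. EGR2 held a single CCATATATGG at -71 of one of its 3 starts, and the windows of its other starts held none. The motif GAANNTTC was matched in IER5 at position -226 and in none of the other 9 windows, against 6.77% of all windows. With so few windows, a single match cannot be told from that share. Neither this motif nor the ETS site named below was among those first planned.

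Both strands were also searched for TGACG, the core of the cAMP response element (CRE), the EGR site GCGNGGGCG, the full CRE TGACGTCA, the ETS site CCGGAAGT and TATAAA. The core TGACG was matched 2 times in the EGR1 window, 2 times in the EGR2 window with the CArG box and 1 time each in those of SRF and IER2, and 24.6% of all windows hold it. The EGR site was matched 1 time each in the printed windows of EGR1 and SRF and in another window of EGR2, against 9.43% of all windows. TGACGTCA, which contains TGACG, and CCGGAAGT were matched in none of the 10 windows, against 1.85% and 4.14% of all windows. TATAAA was matched 1 time, in SRF, against 11.5% of all windows. That match lay on the opposite strand and began at position 15, after the start site. Neither window of NR4A1, at 52022582 to 52022881 and 52037465 to 52037764 of chromosome 12, matched any of the 7 motifs. The gene runs on to 52059503, and any start further downstream was not searched. A match here is a stretch of letters, and no binding was measured.

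**Figure D1:**
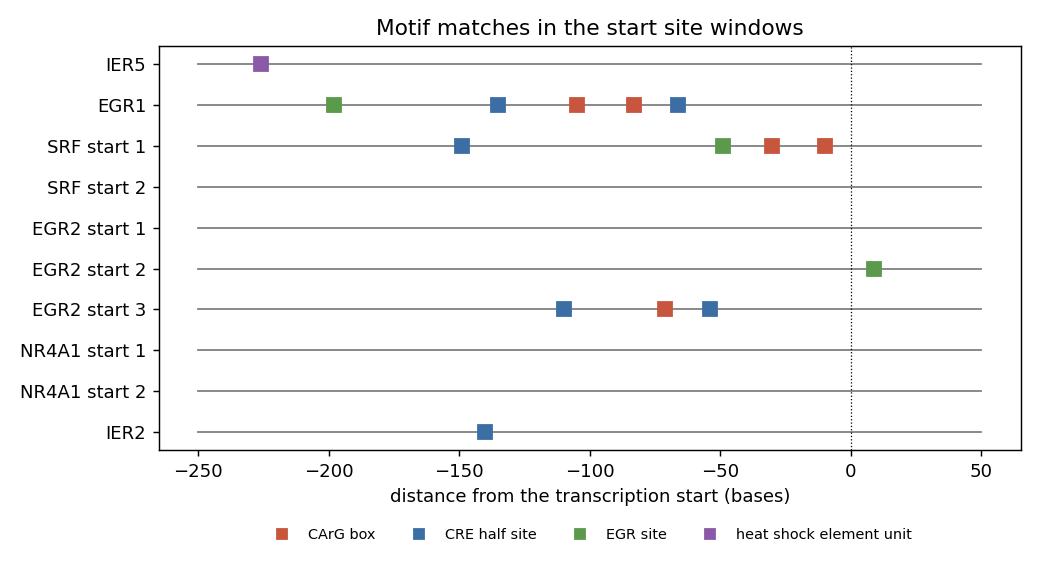
Positions of motif matches in the 10 start site windows, with the distance from the transcription start in bases on the horizontal axis and 1 line per window. The CArG boxes lie at -105 and -83 in EGR1, at -30 and -10 in SRF and at -71 in 1 of the 3 windows of EGR2.

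The libraries held 23146822 to 29104681 estimated counts. Of the 7 markers of this line that were looked up, all were measured, with a summed level of 7469 to 7579 CPM (counts scaled to the effective total of each library) in vehicle libraries and 7537 to 7812 CPM in mitocurcumin libraries. The receptors ESR1 and PGR stayed at or under 10 counts in every library, whereas KRT8, listed as low in this line, stood at 233 CPM in vehicle cells. Of 3 tested genes listed as low, GATA3 changed by -0.57 and KRT8 by -0.15, and of the line's markers LGALS1 rose by 0.27. GATA3 passed in all 14 alternatives, KRT8 in 4 and LGALS1 in 9. Of the markers of other cell types, HBB was at 0, CD3E and CDH5 did not exceed 2 counts, and CD68 stood at 111 CPM in vehicle cells. Summed fibroblast markers ranged from 24.5 to 30.7 CPM under vehicle and from 18.5 to 22.5 CPM under mitocurcumin. Immune and endothelial markers ranged from 121 to 132 and from 87.1 to 107 CPM. COL1A2 of 4 tested fibroblast markers, and CD68 and PECAM1 of 3 tested immune and endothelial markers, fell, and the part of these markers in the results was not tested. Summed nuclear RNA (MALAT1, NEAT1, KCNQ1OT1 and MEG3) ranged from 4532 to 5431 CPM in the vehicle libraries. It was 5136, 4895 and 7380 CPM in mitocurcumin replicates 1, 2 and 3, so the last of these stood apart. MALAT1 made up most of the sum, at 3341, 3096 and 5319 CPM in these libraries and 3256, 4073 and 3331 CPM in vehicle replicates 1, 2 and 3. NEAT1 rose by 0.65 ± 0.07 (edgeR adjusted p = 2.4e-06) and passed in all 14 alternatives, while MALAT1, KCNQ1OT1 and MEG3 did not pass. The part of the NEAT1 rise in the results was not tested.

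Mitocurcumin was compared with vehicle to ask which of these genes differ in mRNA level after 9 hours. EGR1 fell 3.64-fold, SRF fell by a smaller amount, and IER5 rose moderately. The other 6 tested genes, including IER3 and IER2, did not pass the test, and ARC was too low to be tested. Of the 9 tested genes 3 passed, 1 higher and 2 lower, against 32.5% of all 16481 tested genes (14.7% higher and 17.8% lower), so the share of the set that passed lay close to the background. The median log2 fold change of the 9 was -0.18, and that of all tested genes was -0.01. In 4 of the 9 genes (EGR1, NR4A2, IER5 and SRF) no value of a group fell within the range of the other, against 44.9% of all tested genes. Changes below are log2 fold changes ± SE of mitocurcumin over vehicle from edgeR's quasi-likelihood test, with p-values adjusted by the Benjamini-Hochberg method over all tested genes, and a gene passed at an adjusted p under 0.05.

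**Figure D2:**
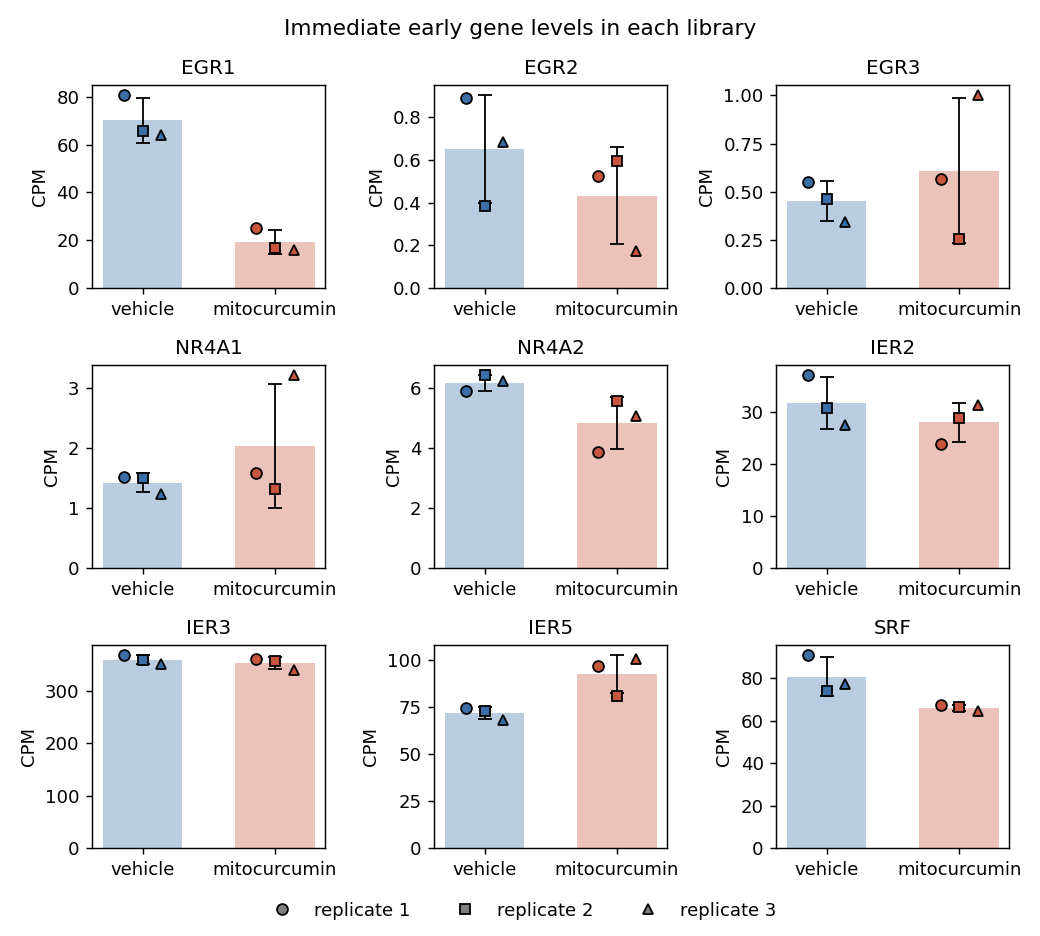
Level of each of the 9 tested genes in CPM (vertical axes from 0) in vehicle and mitocurcumin libraries. Bars are means, error bars SD over 3 libraries and symbols single libraries, with EGR1 at 64.1 to 80.9 CPM under vehicle and 16.1 to 25.03 CPM under mitocurcumin.

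EGR1 is the most studied EGR factor and couples growth factor signals to target genes (Entrez 1958, chromosome 5, 138465479 to 138469303, GRCh38). It stood at 80.9, 65.5 and 64.1 CPM in vehicle replicates 1, 2 and 3, and at 25.03, 16.8 and 16.1 CPM in the mitocurcumin replicates. Every mitocurcumin library lay below every vehicle library, and replicate 1 was the highest in both groups. The mean went from 70.2 ± 9.31 to 19.3 ± 4.97 CPM (SD, n = 3), a log2 fold change of -1.86 ± 0.15, or 3.64-fold lower (edgeR adjusted p = 2.3e-06). Only 17 of the 16481 tested genes had a lower fold change, FOSB and FOS among them, and 0.619% had a larger change in either direction. Without single libraries the log2 fold change of EGR1 ran from -2.08 to -1.74.

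EGR2 and EGR3, close relatives of EGR1 with the same kind of zinc fingers, were near the limit of detection. EGR2 had 21, 10 and 16 counts in the vehicle libraries and 13, 14 and 5 in the mitocurcumin libraries. EGR3 had 13, 12 and 8 counts in the vehicle libraries and 14, 6 and 29 in the mitocurcumin libraries. The groups overlapped in both genes. Neither passed the test, with -0.61 ± 0.51 for EGR2 (edgeR adjusted p = 0.40) and 0.45 ± 0.50 for EGR3 (edgeR adjusted p = 0.54). The value of EGR2 was -0.21 without mitocurcumin replicate 3 and -0.33 without vehicle replicate 1. The direction of EGR3 rested on mitocurcumin replicate 3, without which its log2 fold change was -0.13. EGR4, the remaining family member, had 2 counts in vehicle replicate 1 and 0 in the other 5 libraries. In summed CPM of the 3 measured EGR genes, EGR1 made up 98.4% under vehicle and 94.9% under mitocurcumin. Mitocurcumin replicate 3 was the highest treated library for EGR3 and the lowest for EGR2, and the part of its nuclear RNA level in these values was not tested.

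SRF is the MADS-box factor that binds CArG boxes and serves many immediate early and actin genes (Entrez 6722, chromosome 6, 43171269 to 43181506). It stood at 91.1, 74.2 and 77.1 CPM in the vehicle libraries and at 67.2, 66.3 and 64.6 CPM in the mitocurcumin libraries. The groups did not overlap, and the vehicle library nearest to the treated ones was replicate 2. The mean went from 80.8 ± 9.05 to 66.1 ± 1.32 CPM (SD, n = 3), a log2 fold change of -0.29 ± 0.07 (edgeR adjusted p = 0.0064). Vehicle replicate 1 was the highest library, and without it the log2 fold change was -0.19 (edgeR adjusted p = 0.011). The row of CUL9, which lies 689 bp from SRF on the same strand, had a log2 fold change of 0.20 ± 0.10 and did not pass.

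NR4A1, the receptor also called NUR77, stood at 1.53, 1.51 and 1.24 CPM under vehicle (Entrez 3164, chromosome 12, 52022832 to 52059503). Under mitocurcumin it stood at 1.58, 1.32 and 3.22 CPM. Replicate 3 was the single high library, and the other 2 treated libraries overlapped the vehicle range or lay just above it. NR4A1 had a log2 fold change of 0.53 ± 0.33 (edgeR adjusted p = 0.23), which was 0.03 without mitocurcumin replicate 3 (edgeR adjusted p = 0.97). That library also had the highest summed nuclear RNA, and the part of this in the NR4A1 value was not tested.

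NR4A2, or NURR1, was the more abundant NR4A receptor (Entrez 4929, chromosome 2, 156324437 to 156332721). It stood at 5.89, 6.42 and 6.23 CPM under vehicle and at 3.88, 5.58 and 5.06 CPM under mitocurcumin. All treated libraries lay below all vehicle libraries, by a narrow gap. The log2 fold change was -0.35 ± 0.17 and did not pass (edgeR adjusted p = 0.13). It was -0.21 without mitocurcumin replicate 1, the lowest library. NR4A3, the remaining receptor of the family, overlapped between groups at 2.54 to 4.87 CPM under vehicle and 2.86 to 3.56 CPM under mitocurcumin, a log2 fold change of -0.12 ± 0.24 (edgeR adjusted p = 0.75).

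IER5 encodes a regulator that binds the phosphatase PP2A and the heat shock factor HSF1 (Entrez 51278, chromosome 1, 181088700 to 181092900). It stood at 74.7, 73.1 and 68.5 CPM under vehicle and at 96.8, 81.3 and 100.5 CPM under mitocurcumin. Every treated library lay above every vehicle library, with mitocurcumin replicate 2 the lowest of the treated. The mean went from 72.1 ± 3.23 to 92.9 ± 10.2 CPM (SD, n = 3), a rise of 0.37 ± 0.08 on the log2 scale or 1.29-fold (edgeR adjusted p = 0.0013). Without single libraries the rise ran from 0.30 to 0.46. Its relative IER5L was measured at 1.53 to 1.55 CPM under vehicle and 1.19 to 2.01 CPM under mitocurcumin, with 0.09 ± 0.28 (edgeR adjusted p = 0.85).

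IER2, a nuclear protein with a role in transcription and cell motility, stood at 37.3, 30.8 and 27.5 CPM under vehicle (Entrez 9592, chromosome 19, 13150411 to 13154911). It stood at 24.0, 28.9 and 31.5 CPM under mitocurcumin, so the groups overlapped. The log2 fold change was -0.18 ± 0.12 (edgeR adjusted p = 0.28). It was -0.05 without vehicle replicate 1, the highest library, and -0.06 without mitocurcumin replicate 1, the lowest. The row of STX10 ends 35 bp from that of IER2 on the opposite strand and had a log2 fold change of -0.22 ± 0.11, which did not pass. Whether the counting used strand is not given in the sources used here.

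IER3, also called IEX-1, modulates cell survival and NF-kB and ERK signaling (Entrez 8870, chromosome 6, 30743199 to 30744547). It was the most abundant of the 10 genes in CPM, at 368, 357 and 351 CPM under vehicle and 361, 356 and 339 CPM under mitocurcumin. The groups overlapped in part, with the highest vehicle library above all treated ones and the lowest treated library below all vehicle ones. The libraries of a group differed by no more than 1.06-fold. The log2 fold change was -0.03 ± 0.05 (edgeR adjusted p = 0.72). The antisense row IER3-AS1, which overlaps it, held 2 to 8 counts per library against 8226 to 9788 for IER3. The row of FLOT1, 511 bp from IER3 on the same strand, rose by 0.21 ± 0.07 (edgeR adjusted p = 0.032).

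ARC had 2 counts in vehicle replicate 2, 2 counts in mitocurcumin replicate 2 and 0 counts in the other 4 libraries. It did not pass the filter on low counts. At these depths a count of 0 allows a level of up to 0.103 to 0.130 CPM (3 counts, counting error only), so a difference below that was not detectable.

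**Figure D3:**
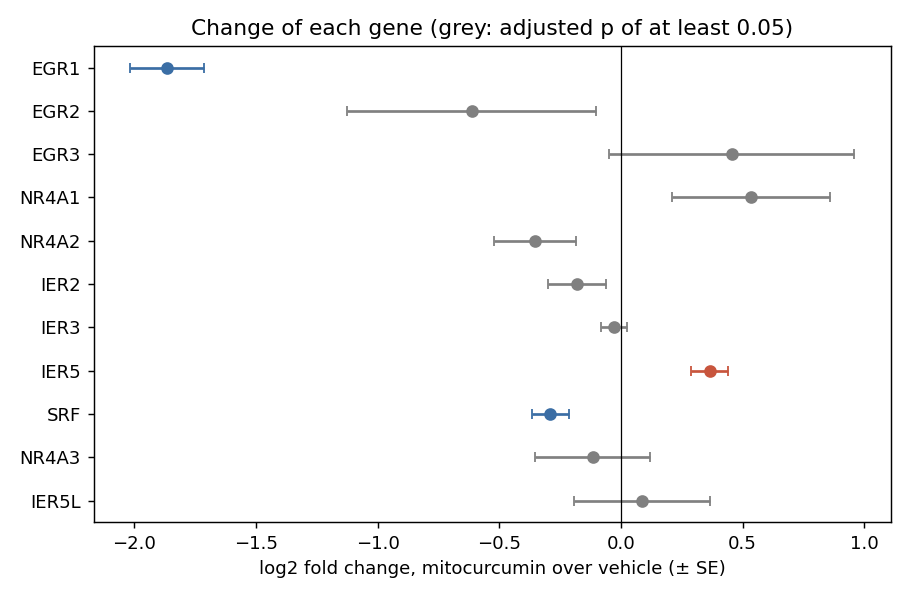
Log2 fold change of mitocurcumin over vehicle for the 9 tested genes and for NR4A3 and IER5L, with error bars of 1 SE from edgeR. EGR1 at -1.86 and SRF at -0.29 are in blue, IER5 at 0.37 is in red, and genes that did not pass are in grey.

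Levels of different genes were compared per kilobase of the longest coding transcript in GENCODE 29. Under vehicle IER3 led at 266 ± 6.55 CPM per kb (SD, n = 3), followed by EGR1 at 22.4 ± 2.97, SRF at 19.2 ± 2.15 and IER5 at 17.2 ± 0.772. The ranges of EGR1 and SRF overlapped, as did those of SRF and IER5, so these neighbours could not be ranked. IER2 followed at 10.9 ± 1.70 CPM per kb, NR4A2 at 1.78 ± 0.0772, NR4A1 at 0.405 ± 0.046, EGR2 at 0.220 ± 0.0852 and EGR3 at 0.104 ± 0.0243. Under mitocurcumin EGR1 stood at 6.15 ± 1.58 CPM per kb, below IER5 at 22.2 ± 2.44, SRF at 15.7 ± 0.313 and IER2 at 9.58 ± 1.30. The ranges of EGR1 and IER2 did not overlap in either group, with EGR1 above IER2 under vehicle and below it under mitocurcumin. EGR2 and EGR3 were last in both groups, at 0.145 and 0.140 CPM per kb under mitocurcumin, where their ranges overlapped.

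**Figure D4:**
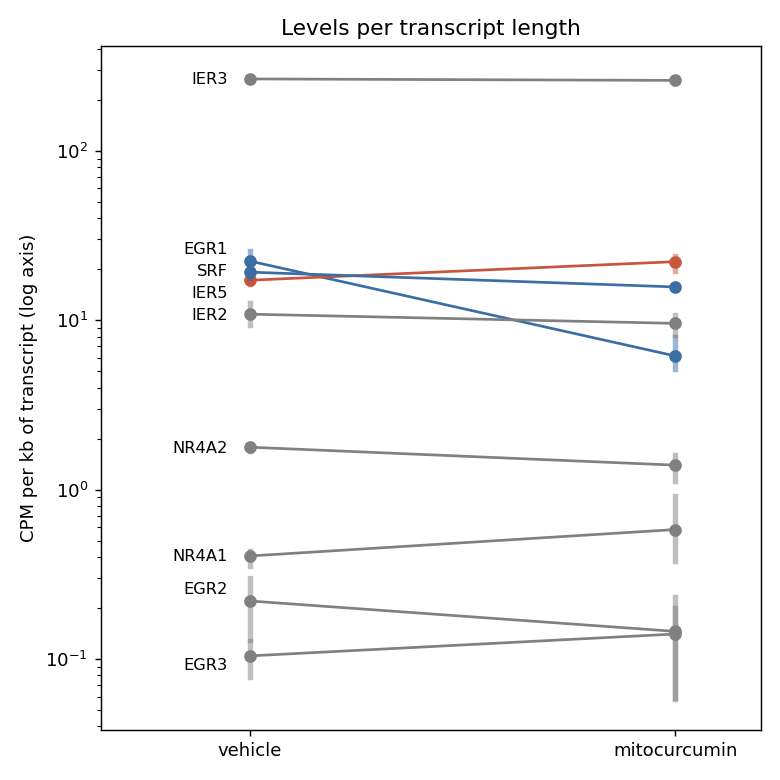
Level of each tested gene per kilobase of transcript (CPM per kb, log axis) under vehicle and mitocurcumin. Points are means of 3 libraries and vertical bars the range, with EGR1 at 22.4 under vehicle and 6.15 under mitocurcumin.

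The median span of the 10 genes was 5162 bp, against 30047 bp for tested protein-coding genes. NR4A1, at 36672 bp, was longer than that median, the other 9 spanned 1349 to 10238 bp, and the longest coding transcript had a median of 2 exons against 9. In that transcript IER2, IER3 and IER5 had 1 exon each, whereas NR4A1 and NR4A2 had 8 and SRF had 7. The IER3 transcript, at 1350 nt, matched the gene's span in length, and any shorter spliced form was not counted. The spread between replicates was often above that of genes at the same level: the biological coefficient of variation of edgeR exceeded its trend in 7 of the 9 genes, against 36.1% of all tested genes. For EGR1 it was 12.6% against a trend of 7.21%, and for NR4A1 23.9% against 19.1%. It was below the trend for IER3, at 5.56% against 6.25%, and for NR4A2.

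Vehicle replicate 1 held the highest vehicle value in 8 of the 9 genes, all but NR4A2, against 38.7% of all tested genes. The part of that library in the results is given by leaving it out: EGR1 then changed by -1.75 ± 0.18, SRF by -0.19 and IER5 by 0.39. Of the genes that did not pass, EGR2 then stood at -0.33, IER2 at -0.05 and IER3 at -0.01. Among mitocurcumin libraries the highest value fell in replicate 1 for 3 genes, in replicate 2 for 2 and in replicate 3 for 4.

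The proteins that work with these factors were examined as a fixed list of 9 genes, all tested, of which 1 rose and 3 fell, that is 11.1% and 33.3%, against 14.7% and 17.8% of all tested genes. Both corepressors of EGR proteins gave values that did not pass, 0.05 ± 0.06 for NAB1 and 0.23 ± 0.17 for NAB2. NAB2 stood at 10.2 CPM in vehicle replicate 1 and at 6.07 and 6.95 CPM in the others, and without that library it passed at 0.47 (edgeR adjusted p = 0.0090). Of the RXR receptors, which pair with NR4A1 and NR4A2, RXRA fell by 0.59 ± 0.11 (edgeR adjusted p = 5.6e-04) and RXRB rose by 0.58 ± 0.08 (edgeR adjusted p = 5.7e-05). Of the SRF cofactors, the ternary complex factor ELK3 changed by -0.25 ± 0.06 and the actin-regulated coactivator MRTFB by -0.32 ± 0.09, while ELK1, ELK4 and MRTFA did not pass. The call of MRTFB was lost without vehicle replicate 3, at -0.21 (edgeR adjusted p = 0.075). ELK3 was named after its value was seen. The list had a median of 0.05.

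In a list of mostly actin and cytoskeletal targets of SRF and the MRTF coactivators, 8 of 21 tested genes fell and 1 rose. That is 38.1% and 4.76%, against 17.8% and 14.7% of all tested genes. The list had a median of -0.10 and includes SRF itself, and also CCN1 and CCN2, which are not cytoskeletal. CCN2, a matricellular growth regulator, stood at 258, 267 and 274 CPM under vehicle and at 140, 130 and 135 CPM under mitocurcumin. Its change was -0.98 ± 0.05 (edgeR adjusted p = 5.8e-10), while its relative CCN1 did not pass, at -0.04 ± 0.05. FILIP1L changed by -0.88 ± 0.11. The cytoplasmic actins ACTB and ACTG1, named after their values were seen, changed by -0.52 ± 0.07 and -0.53 ± 0.09, and both were highest in vehicle replicate 1. TPM1, a tropomyosin, was the gene that rose, at 0.19 ± 0.07 (edgeR adjusted p = 0.042). It passed in 8 of 14 alternatives, with adjusted p-values from 0.0086 to 0.12. Without vehicle replicate 1 its change was 0.11, without replicate 2 it was 0.21, and without mitocurcumin replicate 1, 2 or 3 it was 0.21, 0.19 and 0.21, none of which passed.

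Of 20 genes for kinases and adaptors of the ERK pathway, 5 rose and 3 fell, with a median of -0.04. The 40% that passed compare with 32.5% of all tested genes, and the shares that rose and fell were 25% and 15%, against 14.7% and 17.8%. RPS6KA2, a kinase downstream of ERK, rose by 0.71 ± 0.07, and its relative RPS6KA1 changed by -0.58 ± 0.11. MKNK2, another kinase activated by ERK, rose by 0.66 ± 0.08. SOS1, an exchange factor upstream of the ERK cascade, changed by -0.23 ± 0.07 (edgeR adjusted p = 0.013), and its call was lost without vehicle replicate 2 (-0.22) or 3 (-0.16) and without mitocurcumin replicate 1 (-0.18) or 3 (-0.22). Without mitocurcumin replicate 1 the number that fell was 1, and without mitocurcumin replicate 2 the number that rose was 3. These are mRNA levels, and the activity of the pathway was not measured.

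Among 39 other tested immediate early genes, 16 rose and 13 fell, that is 41.03% and 33.3%, against 14.7% and 17.8% of all tested genes. The list's median was -0.03. FOSB stood at 32.7, 21.7 and 19.2 CPM under vehicle and at 2.06, 1.07 and 1.39 CPM under mitocurcumin, and FOS at 89.3, 72.5 and 65.4 against 10.96, 6.05 and 6.41 CPM. In both genes, as in EGR1, replicate 1 was the highest of each group. FOSB and FOS changed by -4.02 ± 0.24 and -3.28 ± 0.22, both further than EGR1. ATF3, a stress-induced factor, rose by 2.56 ± 0.16, and PPP1R15A, the phosphatase subunit GADD34, by 1.49 ± 0.06.

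**Figure D5:**
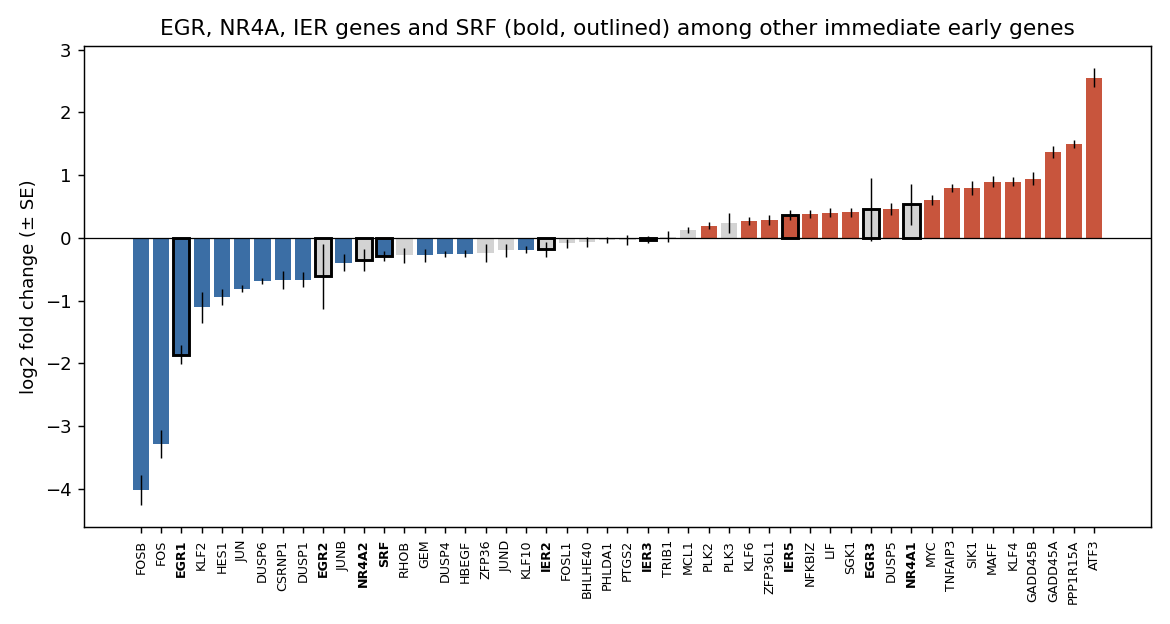
Log2 fold changes (± SE) of the 9 tested genes, outlined and in bold, among 39 other immediate early genes, ordered by value. Blue and red bars passed the test and grey bars did not, with FOSB at -4.02 and ATF3 at 2.56 as the extremes and EGR1 at -1.86 next after FOS.

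The genes whose log2 CPM followed that of EGR1 most closely over the 6 libraries were FAM234B, CAPN5 and KHSRP, by Pearson's r among 11163 tested genes with a mean of at least 5 CPM. Their r was 0.9996, 0.9988 and 0.9987, and their changes were -0.43 ± 0.11, -1.40 ± 0.15 and -0.34 ± 0.05. All 6 points share the treatment and the libraries, and 788 genes had an r above 0.95, so this is a description of these libraries. Within the set, r with EGR1 was 0.89 for SRF, 0.59 for NR4A2, 0.57 for EGR2, 0.55 for IER3, 0.39 for IER2, -0.19 for EGR3, -0.50 for NR4A1 and -0.81 for IER5.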

How the data were processed

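The genes, lists and tests were chosen with earlier results of these data known. Poly(A) RNA was sequenced in 3 vehicle and 3 mitocurcumin libraries, with stranded libraries per the labels' protocols, RefSeq genes per the file headers and build GRCh38 per the submitters' processing notes. The aligner, the counter and the use of strand are not given in the sources used here. What the authors deposited as raw values are estimated counts, of which 20.1% to 21.4% of those above 0 were whole numbers. They also deposited log2 values, which equal log2 of the count divided by 1 factor per library wherever they are above 0.

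Estimated counts were rounded, as the unit required, although whole counts had been assumed. They were tested in R 4.3.3 with edgeR 4.0.16 (quasi-likelihood test, robust, TMM, group only), with Benjamini-Hochberg adjustment. filterByExpr (minimum count 10, minimum total 15) kept 16481 rows. CPM used TMM-scaled totals. SE is the coefficient divided by the square root of F. Totals of 23146822 to 29104681 limit genes of few counts, and over all genes the biological coefficient of variation was 8.43%. Replicate pairs differed by a chi-square per gene of 5.31 to 19.03, above sampling noise, so none was counted as a duplicate. Genes named are the set and its family members and, in each list, the 2 largest rises and falls that passed at a mean of at least 1 CPM. Genes named to spell out a small count or a contrast were chosen after their values were seen. Alternatives used DESeq2 1.42.0, limma 3.58.1 (voom, and on the authors' deposited log2 values), other scalings and filters, a replicate term, unrounded counts and each library left out.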

Additional observations from a re-analysis of the deposited data

How the results depend on the processing

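EGR1, SRF and IER5 kept their direction and passed in each of the 14 alternatives, with adjusted p-values up to 5.2e-04, 0.040 and 0.017, and the other 6 tested genes of the set passed in none. The number of genes of the set that passed was 3 in every alternative. The number over all tested genes ran from 4100 to 6088, against 5363. Values that changed sign, none past the threshold, were those of EGR3 without mitocurcumin replicate 3 (-0.13), NR4A3 without vehicle replicate 2 (0.21) and IER5L without mitocurcumin replicate 3 (-0.10). With single libraries left out these ran from -0.13 to 0.81 for EGR3, from -0.30 to 0.21 for NR4A3 and from -0.10 to 0.27 for IER5L. The cause was not tested. With a replicate block EGR1, SRF and IER5 changed by -1.88, -0.29 and 0.36, and 5806 genes passed. Deviations of same-numbered libraries correlated at 0.10, 0.02 and -0.01, and those of differently numbered libraries at -0.11 to 0.09. With 3 libraries per group these values cannot decide whether the numbers pair the samples. The block changed no call of the set. Counts limit EGR2, EGR3 and ARC, with 79, 82 and 4 counts over all 6 libraries.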
